A study of Mus musculus with 6 samples.

Results

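The genes described here are the 37 genes of the mouse mitochondrial genome, chosen from the gene count table as every gene whose GENCODE M21 symbol starts with mt-, out of 56262 genes listed. They were measured by RNA-seq in leg muscle of fetuses at embryonic day 18.5, in 3 WT libraries and 3 KO libraries. KO mice lack *SYISL*, a long noncoding RNA from within the *Synpo2* locus. All fetuses came from matings of mice with the same genotype, so a KO fetus also had a KO mother, and the effects of fetal and maternal genotype cannot be told apart. Litters and numbers of fetuses per library are not labelled, so p-values measure only the spread between these libraries. The strand setting of the counting is not stated, so reads from opposite strands at one place cannot be told apart. The annotation used here gives no symbol for *SYISL*, so it was not identified in the table and its level is not given.

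Mitochondria keep a small circular genome that encodes core subunits of the respiratory chain and of ATP synthase, together with the rRNAs and tRNAs needed to translate them. Both strands are copied as long transcripts, and the tRNAs, which lie between the other genes, are cut out to release mRNAs and rRNAs. All other proteins of the organelle, including the enzymes that transcribe this genome, are encoded in the nucleus. Skeletal muscle fibers are rich in mitochondria. The 37 genes comprise 13 mRNA genes, 2 rRNA genes and 22 tRNA genes. On chromosome M of mm10, 28 of them lie on the plus strand, and 9 lie on the minus strand, namely *mt-Nd6* and 8 tRNA genes.

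Some neighboring genes share bases, and the 3 longest of 9 such overlaps are shown because a read that covers them cannot be given to 1 gene with certainty. In the windows below, taken from the GENCODE M21 transcripts on mm10 and written on the plus strand, capitals mark the bases that both genes hold. The overlap is 43 bases for *mt-Atp8* and *mt-Atp6*, 7 bases for *mt-Nd4l* and *mt-Nd4*, and 14 bases for *mt-Nd5* and *mt-Nd6*, which run in opposite directions. The other 6 overlaps, of which 5 involve a tRNA gene and the last is that of *mt-Atp6* with *mt-Co3*, are 1 to 3 bases long.
mt-Atp8/mt-Atp6, chrM:7897-7999: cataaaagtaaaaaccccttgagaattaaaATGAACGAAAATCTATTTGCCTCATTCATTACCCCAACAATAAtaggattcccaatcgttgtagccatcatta
mt-Nd4l/mt-Nd4, chrM:10137-10203: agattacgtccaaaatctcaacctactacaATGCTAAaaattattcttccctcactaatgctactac
mt-Nd5/mt-Nd6, chrM:13522-13595: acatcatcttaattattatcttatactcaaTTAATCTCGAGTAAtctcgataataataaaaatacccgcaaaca

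Some members also have near-identical copies in the nuclear genome. The whole of *mt-Nd4l* is shown as an example, on the plus strand, with capitals for the bases that the nuclear pseudogene *Gm10222* repeats letter for letter.
mt-Nd4l, chrM:9877-10173: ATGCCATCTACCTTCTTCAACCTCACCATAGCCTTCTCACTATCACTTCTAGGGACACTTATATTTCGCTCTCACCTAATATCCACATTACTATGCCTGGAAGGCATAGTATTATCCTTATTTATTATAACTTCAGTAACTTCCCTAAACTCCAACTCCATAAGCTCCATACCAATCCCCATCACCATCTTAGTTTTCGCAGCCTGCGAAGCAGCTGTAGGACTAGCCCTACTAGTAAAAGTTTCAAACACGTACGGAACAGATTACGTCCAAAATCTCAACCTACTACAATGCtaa
The tRNA genes shown next are the 3 that rose in KO and the 3 others with the highest mean counts, each 5′ to 3′ on its own strand with the anticodon in capitals.
mt-Tl1 (leucine), chrM:2676-2750, plus strand: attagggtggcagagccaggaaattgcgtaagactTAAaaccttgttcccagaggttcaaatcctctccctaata
mt-Tm (methionine), chrM:3845-3913, plus strand: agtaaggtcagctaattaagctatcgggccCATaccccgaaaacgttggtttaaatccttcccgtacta
mt-Tp (proline), chrM:15356-15422, minus strand: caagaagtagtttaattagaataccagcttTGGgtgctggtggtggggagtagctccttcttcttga
mt-Tn (asparagine), chrM:5089-5159, minus strand: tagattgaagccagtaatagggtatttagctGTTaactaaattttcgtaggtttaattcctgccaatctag
mt-Tc (cysteine), chrM:5192-5257, minus strand: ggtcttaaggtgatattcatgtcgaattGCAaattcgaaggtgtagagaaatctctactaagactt
mt-Te (glutamate), chrM:14071-14139, minus strand: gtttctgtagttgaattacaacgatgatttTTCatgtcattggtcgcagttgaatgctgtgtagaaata

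The libraries held 82054811 to 102233181 counts. Tissue markers differed between the genotypes. Of 10 muscle fiber markers, 9 rose in KO, and their summed level was 20852 to 23410 CPM in WT and 44766 to 54842 CPM in KO. All 12 epidermis markers fell, from a sum of 16778 to 25112 CPM in WT to 923 to 1034 CPM in KO. All 6 red blood cell markers found in the table fell, all 7 adipocyte markers and all 6 macrophage markers rose, and of 4 brown adipocyte markers 3 rose and *Ucp1* fell. Of 5 cartilage markers 2 rose and 3 fell, and 3 of 4 endothelium markers and 3 of 3 Schwann cell markers rose. No defining marker of muscle fibers was at 0. These shifts moved with genotype beside every result that follows, and their part in the results was not tested. In such bulk tissue, fewer cells of a type and less RNA per cell cannot be told apart.

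Mitochondrial genes took a larger share of the counts in KO than in WT in every library. The mRNA genes accounted for 4.59%, 4.56% and 4.47% of all counts in WT and 5.19%, 5.46% and 5.85% in KO, and these ranges do not overlap. The rRNA genes accounted for 0.120%, 0.106% and 0.105% of WT counts and 0.104%, 0.107% and 0.107% of KO counts, so that the genotypes overlap for this class. The tRNA genes accounted for 0.0112%, 0.00911% and 0.0103% of WT counts and 0.0106%, 0.0114% and 0.0113% of KO counts, which also overlap. The share of the whole genome was 0.952 percentage points higher in KO on average, as a description with no test. It was 1.21 points higher when the 10 most counted nuclear genes of each library were set aside.

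**Figure D1:**
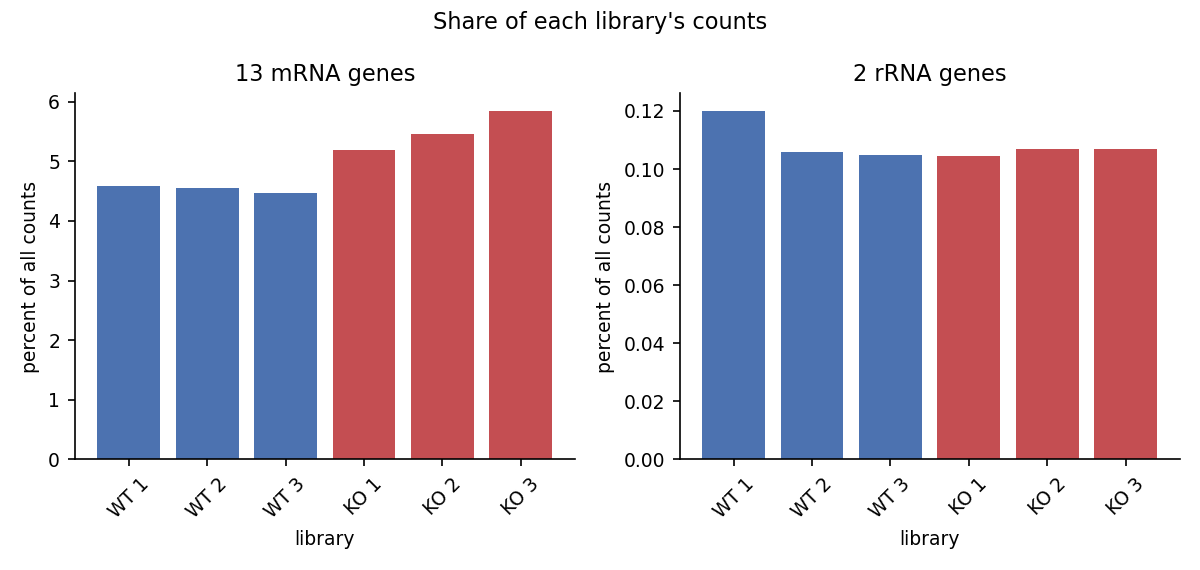
Percent of all counts taken by the 13 mRNA genes (left) and the 2 rRNA genes (right) in each library, with 1 bar per library, WT in blue and KO in red. The mRNA share is 4.47% to 4.59% in WT and 5.19% to 5.85% in KO, whereas the rRNA shares of the genotypes overlap.

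The counts per kilobase on the mRNA genes, called levels here, differed widely along the genome. Per kilobase, *mt-Co1* had the highest level in WT at 9133 ± 275 CPM per kb (SD, n = 3 here and for the other levels), followed by *mt-Nd1* at 8305 ± 238 and *mt-Cytb* at 6537 ± 193 CPM per kb. The lowest level was that of *mt-Nd3*, at 139 ± 33.7 CPM per kb. Between these lay *mt-Nd4* at 2771 ± 110, *mt-Nd5* at 2592 ± 61.4, *mt-Nd2* at 2507 ± 196, *mt-Nd6* at 1926 ± 170, *mt-Co2* at 1457 ± 66.3, *mt-Atp6* at 1364 ± 307 and *mt-Co3* at 666 ± 54.0 CPM per kb. Lower still were the small-subunit rRNA *mt-Rnr1* at 578 ± 50.2, *mt-Nd4l* at 404 ± 79.4, *mt-Atp8* at 371 ± 54.6 and the large-subunit rRNA *mt-Rnr2* at 331 ± 19.9 CPM per kb. Neighbors in this order whose WT libraries overlap are *mt-Nd5* with *mt-Nd2*, *mt-Co2* with *mt-Atp6*, *mt-Co3* with *mt-Rnr1*, *mt-Nd4l* with *mt-Atp8*, and *mt-Atp8* with *mt-Rnr2*. In KO, the order was the same except that *mt-Nd4l* stood above *mt-Rnr1*, and those 2 genes overlapped there. This order is that of the counts as deposited, and it changes when the counts of nuclear copies, described further on, are added. The WT levels are then 2213 CPM per kb for *mt-Atp6* and 2174 for *mt-Co2*, both above *mt-Nd6* at 1927, and 1170 for *mt-Co3*, 515 for *mt-Nd4l* and 268 for *mt-Nd3*. Whether reads that map equally well to both places were counted at all is not stated, so these sums may still miss reads. The part of that handling in the levels and their order was not tested. The paper describes the library construction only by reference to earlier work, so whether rRNA was removed is not known here. The part of that step in the rRNA levels relative to the mRNAs, here and below, was not tested.

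**Figure D2:**
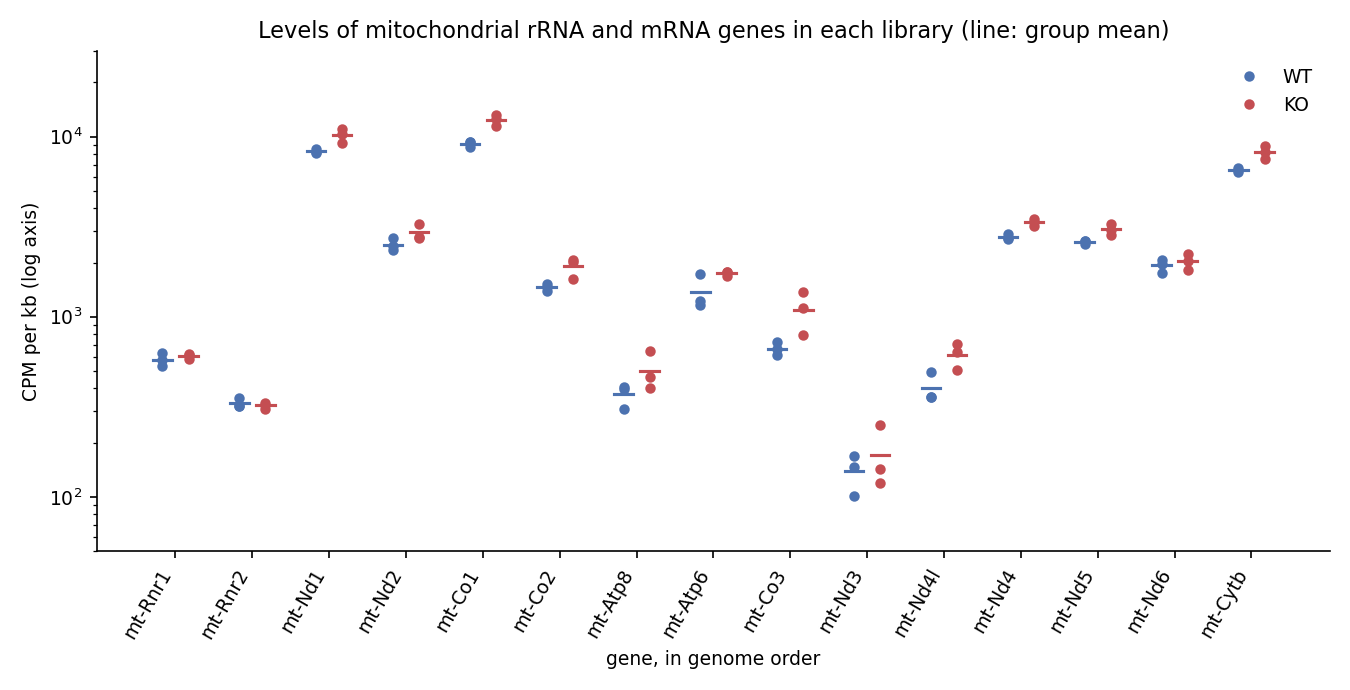
CPM per kb on a log axis for the 2 rRNA and 13 mRNA genes in genome order, with 1 point per library and a line at the mean of each genotype (WT blue, KO red). *mt-Co1*, *mt-Nd1* and *mt-Cytb* stand above the other genes in both genotypes, and the KO points of 9 mRNA genes lie above all WT points.

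Several mitochondrial mRNAs rose moderately in KO, and no mitochondrial gene fell. With edgeR's quasi-likelihood test, 8 of 13 mRNA genes, 0 of 2 rRNA genes and 3 of 15 tested tRNA genes rose at an adjusted p under 0.05 (Benjamini-Hochberg over all genes tested). Together 11 of the 30 members that passed the filter on low counts rose, where 21.9% of all 22071 genes tested rose and 23.1% fell. The count of members that fell was 0, with edgeR, DESeq2 and limma-voom alike, and 0 also at an unadjusted p under 0.05 with each tool. The median log2 fold change was 0.33 over the mRNA genes, 0.01 over the rRNA genes and 0.05 over the tested tRNA genes, beside 0.00 over all genes tested. The log2 fold changes of the 13 mRNA genes were above 0 under the 4 other scalings run. All KO libraries lay above all WT libraries for 9 mRNA genes and 4 tRNA genes, where this held for 27.3% of all genes tested. Leaving out each library in turn gave 8 to 12 members that rose. A fold over 1.5 was passed as well by *mt-Co3*, *mt-Nd4l*, *mt-Tl1* and *mt-Tm*, so by 4 members, where 8.31% of all genes tested rose and 8.39% fell by that much. That count was 2 without KO replicate 3, without WT replicate 1 or without WT replicate 3, and 2 with library size alone as the scaling.

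The mRNA genes of complex I, the NADH dehydrogenase that feeds electrons into the chain, rose in part. *mt-Nd1* had 8198, 7889 and 7755 CPM in WT and 8829, 9919 and 10614 CPM in KO (log2 fold change 0.30, SE 0.085, adjusted p = 0.0175 from edgeR). *mt-Nd4* had 3750, 3993 and 3713 CPM in WT and 4410, 4602 and 4827 CPM in KO (log2 fold change 0.27, SE 0.068, adjusted p = 0.00958). *mt-Nd5* had 4599, 4792 and 4793 CPM in WT and 5174, 5557 and 6006 CPM in KO (log2 fold change 0.24, SE 0.075, adjusted p = 0.0274). For each of these 3 genes every KO library lay above every WT library. *mt-Nd4l*, the short gene at the head of the *mt-Nd4* transcript, had 106, 147 and 107 CPM in WT and 149, 210 and 190 CPM in KO (log2 fold change 0.61, SE 0.15, adjusted p = 0.00757). Its WT replicate 2 and KO replicate 1 nearly met. *mt-Nd2* did not pass the test, with 2557, 2825 and 2426 CPM in WT and 2845, 2890 and 3411 CPM in KO (log2 fold change 0.23, adjusted p = 0.0653), although its genotypes did not overlap. *mt-Nd3* did not pass either, with 50.9, 35.3 and 58.3 CPM in WT and 41.6, 49.7 and 86.7 CPM in KO (log2 fold change 0.30, adjusted p = 0.384), and its KO replicate 3 stood far above the other KO libraries. The call of *mt-Nd1* was lost without KO replicate 2 (adjusted p = 0.0697), KO replicate 3 (0.0871) or WT replicate 3 (0.0794). That of *mt-Nd5* was lost without KO replicate 2 (0.0824), KO replicate 3 (0.12), WT replicate 1 (0.0654) or WT replicate 3 (0.0816), and with library size alone (0.0709). That of *mt-Nd4* was lost without WT replicate 3 (0.0571). *mt-Nd2* passed without KO replicate 1 (adjusted p = 0.0314) or WT replicate 2 (0.0279), with DESeq2 (0.016) or limma-voom (0.0432), with upper-quartile factors (0.0183), and without the filter (0.0267) or with at least 10 counts required in every library (0.0499).

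*mt-Nd6*, the complex I subunit and the only mRNA encoded on the minus strand, stood lowest among the mRNA genes in its response. It had 1015, 1079 and 905 CPM in WT and 946, 1065 and 1150 CPM in KO, with the genotypes interleaved. Its log2 fold change was 0.08 (SE 0.087, adjusted p = 0.514).

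*mt-Cytb*, the single mitochondrial subunit of complex III, rose in KO. It had 7453, 7711 and 7271 CPM in WT and 8635, 9454 and 10143 CPM in KO, with no overlap, and a log2 fold change of 0.33 (SE 0.081, adjusted p = 0.00856 from edgeR).

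All 3 mitochondrial genes of complex IV, the cytochrome c oxidase, rose. *mt-Co1*, the catalytic subunit and the most counted member, had 14344, 14368 and 13620 CPM in WT and 17714, 19338 and 20499 CPM in KO (log2 fold change 0.44, SE 0.085, adjusted p = 0.0023 from edgeR). *mt-Co2*, which takes electrons from cytochrome c, had 995, 1043 and 952 CPM in WT and 1115, 1420 and 1370 CPM in KO (log2 fold change 0.39, SE 0.09, adjusted p = 0.00658). *mt-Co3* had 565, 521 and 480 CPM in WT and 618, 880 and 1077 CPM in KO (log2 fold change 0.72, SE 0.17, adjusted p = 0.00632). No KO library overlapped WT for any of the 3 genes. The KO libraries of *mt-Co3* were spread widely, with a coefficient of variation of 26.8% against 8.12% in WT.

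The mitochondrial subunits of ATP synthase, *mt-Atp6* and *mt-Atp8*, did not pass the test. *mt-Atp6* had 831, 787 and 1169 CPM in WT and 1146, 1210 and 1199 CPM in KO (log2 fold change 0.35, SE 0.13, adjusted p = 0.0527 from edgeR). *mt-Atp8* had 62.8, 82.9 and 81.3 CPM in WT and 94.2, 82.2 and 131 CPM in KO (log2 fold change 0.44, SE 0.16, adjusted p = 0.0514). WT replicate 3 of *mt-Atp6* lay within the KO range while the other WT libraries lay well below it. *mt-Atp6* passed without WT replicate 3 (log2 fold change 0.55, adjusted p = 0.000462). *mt-Atp8* passed without KO replicate 2 (adjusted p = 0.0206) or WT replicate 2 (0.0398). Both also passed without the filter on low counts (0.00521 and 0.00297), with at least 10 counts required in every library (0.0498 and 0.0494) and with upper-quartile factors (0.0281 and 0.0242), and *mt-Atp6* passed with limma-voom (0.0355). Neither passed with DESeq2 (0.146 for *mt-Atp6* and 0.161 for *mt-Atp8*) or with library size alone (0.0998 and 0.0653). With a library left out, the adjusted p reached 0.153 and 0.164.

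The rRNAs of the mitochondrial ribosome did not pass the test. *mt-Rnr1* had 603, 546 and 507 CPM in WT and 554, 594 and 585 CPM in KO (log2 fold change 0.07, SE 0.068, adjusted p = 0.47 from edgeR). *mt-Rnr2* had 560, 505 and 507 CPM in WT and 488, 515 and 525 CPM in KO (log2 fold change -0.04, SE 0.058, adjusted p = 0.597). The genotypes overlapped for both, and with other scalings the log2 fold changes ranged from 0.00 to 0.13 and from -0.11 to 0.03, while these scalings moved the median of all genes from -0.07 to 0.06. The sign of both rRNA genes therefore depended on the scaling, and no direction is given for them.

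**Figure D3:**
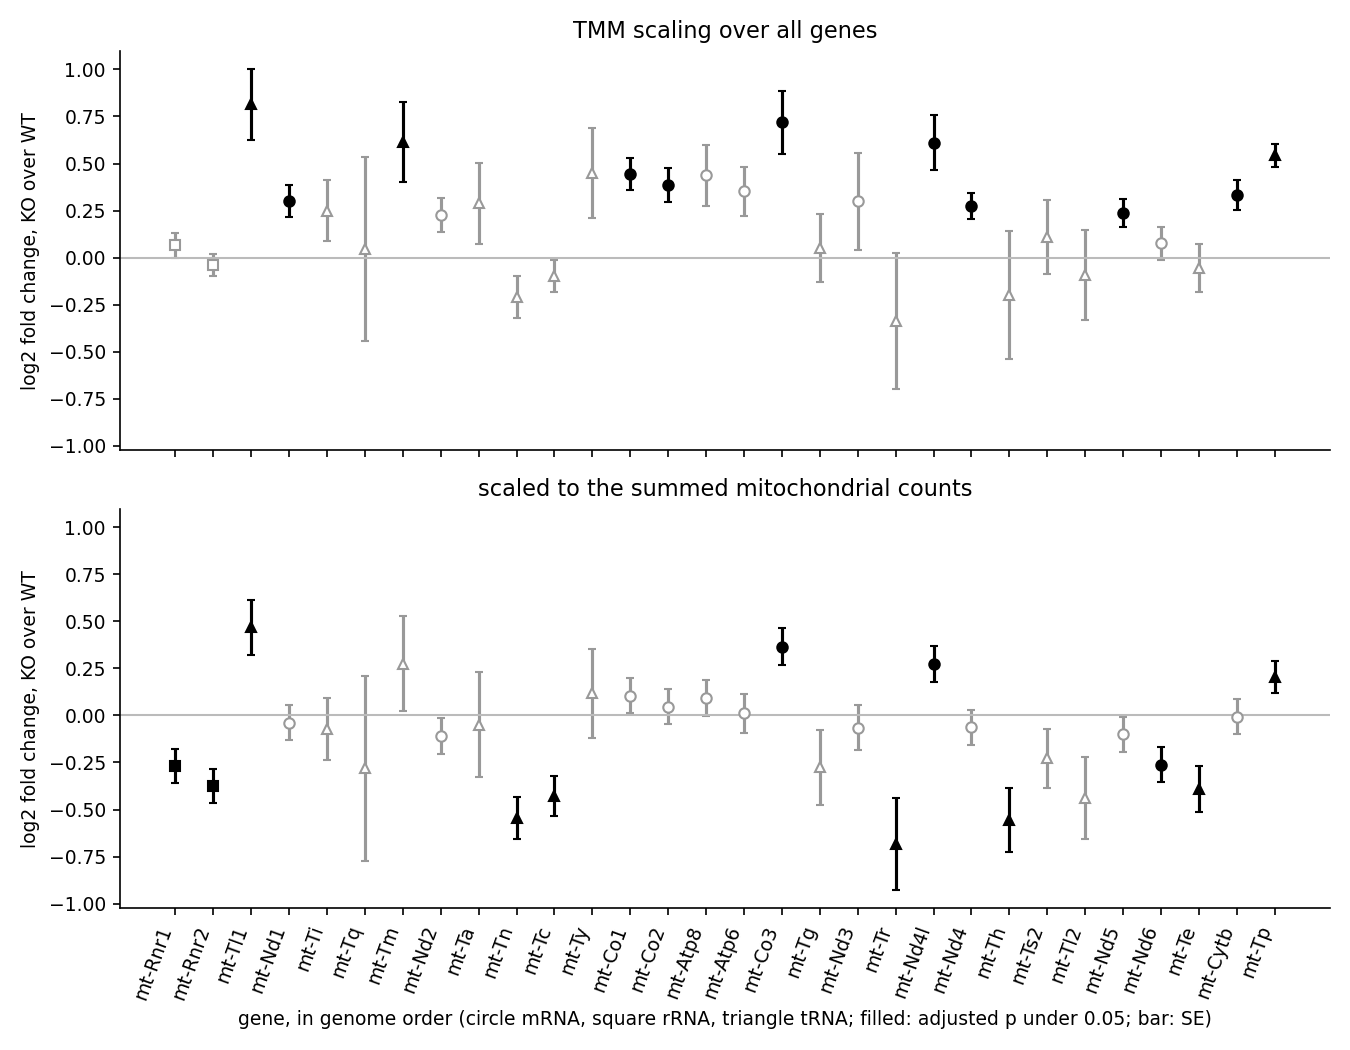
Log2 fold change of KO over WT with its SE for the 30 tested members in genome order, after TMM scaling over all genes (top) and after scaling to the summed mitochondrial counts (bottom). Circles are mRNA, squares rRNA and triangles tRNA genes, and filled symbols have an adjusted p under 0.05. In the top panel 11 members are filled, each above 0. In the bottom panel 4 are filled above 0 and 8 below it.

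The tRNA genes were counted at very different levels. Tested tRNA genes had mean counts from 8.5 to 4294 per library, and 7 were too low to test (*mt-Tf*, *mt-Tv*, *mt-Tw*, *mt-Ts1*, *mt-Td*, *mt-Tk* and *mt-Tt*), with at most 16 counts in any library. *mt-Tf* had 0 counts in every library, which allows up to 3 counts, or 0.0293 to 0.0366 CPM of the unscaled totals, for counting error only. Mature tRNAs are shorter than the reads, so a count on a tRNA gene can come from a longer transcript that spans it, and which of these was sequenced was not tested.

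*mt-Tp*, the proline tRNA gene on the minus strand, had the lowest adjusted p of all members. It had 37.2, 36.0 and 37.0 CPM in WT and 48.3, 54.9 and 57.6 CPM in KO (log2 fold change 0.54, SE 0.061, adjusted p = 8.2e-05 from edgeR). *mt-Tl1*, the leucine tRNA gene that lies between *mt-Rnr2* and *mt-Nd1*, had 2.70, 1.67 and 2.52 CPM in WT and 3.18, 4.46 and 4.54 CPM in KO (log2 fold change 0.81, SE 0.19, adjusted p = 0.00639). Every KO library lay above every WT library for both genes. *mt-Tm*, the methionine tRNA gene, had only 21 to 54 counts per library. It had 0.328, 0.254 and 0.322 CPM in WT and 0.384, 0.567 and 0.442 CPM in KO (log2 fold change 0.61, SE 0.21, adjusted p = 0.0422). Its call was lost in 10 of the 16 other settings run, which include DESeq2 (adjusted p = 0.155), limma-voom (0.0546) and each library left out but KO replicate 1 (0.0661, 0.124 and 0.0811 with WT replicates 1, 2 and 3 left out, and 0.162 and 0.0829 with KO replicates 2 and 3 left out).

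Other well counted tRNA genes on the minus strand did not share the difference of *mt-Tp*. *mt-Tn*, for asparagine, had 25.5, 18.2 and 22.9 CPM in WT and 18.3, 20.9 and 18.4 CPM in KO (log2 fold change -0.21, SE 0.11, adjusted p = 0.157 from edgeR). *mt-Tc*, for cysteine, had 22.7, 18.1 and 19.2 CPM in WT and 18.9, 19.6 and 17.5 CPM in KO (log2 fold change -0.10, SE 0.086, adjusted p = 0.395). *mt-Te*, for glutamate, which lies next to *mt-Nd6*, had 6.74, 7.51 and 7.69 CPM in WT and 7.38, 5.55 and 8.18 CPM in KO (log2 fold change -0.06, adjusted p = 0.762), and the genotypes overlapped for all 3 genes. Without WT replicate 2, *mt-Tn* fell (log2 fold change -0.33, adjusted p = 0.00577), and it was then the only member that fell. Among the other tRNA genes, *mt-Ti* passed without KO replicate 3 (adjusted p = 0.0334), *mt-Ty* without KO replicate 2 (0.0483) and *mt-Ts2* without WT replicate 1 (0.036), each higher in KO.

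To see whether the members changed unequally, the test was repeated with the summed mitochondrial counts of each library as its depth. This removes any difference that all members share, and since *mt-Co1* alone took 30.7% to 33.5% of these counts, it sets the others largely against the abundant mRNAs. Against the mitochondrial total, 8 members were lower in KO and 4 were higher, where 54.3% and 6.86% of all 22071 genes were called in these directions. The background is unbalanced because the median of all genes lies at -0.34 on this scale. The lower members were both rRNA genes, *mt-Nd6* and 5 tRNA genes. *mt-Rnr2* was at a log2 fold change of -0.38 (SE 0.091, adjusted p = 0.000295 from edgeR), *mt-Rnr1* at -0.27 (adjusted p = 0.00961) and *mt-Nd6* at -0.26 (adjusted p = 0.012). *mt-Tn* was at -0.55 (adjusted p = 2.0e-05), *mt-Tc* at -0.43 (adjusted p = 0.000537), *mt-Te* at -0.39 (adjusted p = 0.00427), *mt-Th* at -0.56 (adjusted p = 0.004) and *mt-Tr* at -0.68 (adjusted p = 0.0132). The higher members were *mt-Co3* at 0.37 (adjusted p = 0.00123), *mt-Nd4l* at 0.27 (adjusted p = 0.0105), *mt-Tl1* at 0.47 (adjusted p = 0.00398) and *mt-Tp* at 0.21 (adjusted p = 0.0345). Of these, *mt-Co3* and *mt-Nd4l* have near-identical nuclear copies, described further on, and the part of reads shared with these copies was not tested.

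The other 10 mRNA genes lay between -0.11 and 0.11 on this scale, without passing the test. *mt-Rnr2*, *mt-Tn* and *mt-Tc* were lower under every alternative run. The count of higher members was 1 without KO replicate 3 and 2 without KO replicate 2 or any WT library, and the count of lower members was 5 without WT replicate 1. The call was lost without WT replicate 1 for *mt-Rnr1* (adjusted p = 0.105), without WT replicate 2 for *mt-Nd6* (0.0632) and without KO replicate 3 for *mt-Co3* (0.0891). *mt-Te* lost it without KO replicate 2 (0.146), and *mt-Tl1* without KO replicate 3 (0.0695) or WT replicate 2 (0.114). *mt-Nd4l* lost it without KO replicate 2 (0.198), KO replicate 3 (0.0674), WT replicate 1 (0.135) or WT replicate 3 (0.0993), and *mt-Tp* without KO replicate 2 (0.149), WT replicate 1 (0.0959), WT replicate 2 (0.167) or WT replicate 3 (0.0845). The tRNA genes *mt-Tr* and *mt-Th* had 21 to 74 and 150 to 486 counts per library, and their calls were lost with DESeq2 (adjusted p = 0.11 and 0.371). They were also lost without WT replicate 1 (0.0593 and 0.128), KO replicate 1 (0.171 and 0.191) or KO replicate 3 (0.184 and 0.124). Without WT replicate 2, *mt-Nd3*, *mt-Ts2* and *mt-Tl2* were also called lower (0.0343, 0.0462 and 0.0467), and *mt-Tl2* was so without KO replicate 2 as well (0.0219).

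Ratios between members within a library do not depend on the scaling between libraries. The log2 ratio of summed rRNA to summed mRNA, per base, was -3.09, -3.26 and -3.25 in WT and -3.47, -3.51 and -3.61 in KO, with no overlap. It was 0.33 lower in KO (difference -0.33, exact two-sided permutation test, p = 0.1, adjusted p = 0.25 over 5 ratios). With 3 libraries against 3, an exact p of 0.1 is the smallest possible, so no ratio could pass. Any part of rRNA removal during library preparation in this first ratio was not tested. The log2 ratio of *mt-Rnr2* to *mt-Rnr1* was -0.83, -0.84 and -0.73 in WT and -0.91, -0.94 and -0.88 in KO (difference -0.11, exact permutation p = 0.1, adjusted p = 0.25), again with no overlap. The ratio of *mt-Nd6* to *mt-Nd5*, whose ends meet on opposite strands, was -0.37, -0.34 and -0.59 in WT and -0.64, -0.57 and -0.57 in KO (difference -0.16, exact permutation p = 0.3, adjusted p = 0.375). The ratio of *mt-Nd4* to *mt-Nd4l*, which share 1 transcript, was 2.93, 2.55 and 2.90 in WT and 2.67, 2.24 and 2.45 in KO (difference -0.34, exact permutation p = 0.2, adjusted p = 0.333). That of *mt-Atp6* to *mt-Atp8*, also on 1 transcript, was 1.99, 1.51 and 2.11 in WT and 1.87, 2.14 and 1.46 in KO (difference -0.05, exact permutation p = 0.8, adjusted p = 0.8). The latter 3 ratios overlapped between the genotypes. Nuclear copies, described next, held unequal shares of the summed counts within the last 2 pairs. These were 19.6% for *mt-Nd4l* and 5.13% for *mt-Nd4*, and 38.1% for *mt-Atp6*, with no copy found for *mt-Atp8*. Their part in these ratios was not tested.

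Nuclear copies bear on several of these genes. Of the annotated nuclear genes, 15 had a transcript that matched a member at 90% identity or more over at least 200 bases, and all of them are pseudogenes. In mm10, 7 such pseudogenes stand in a row at chr1:24611535-24616197, all in minus orientation. The row repeats the stretch from part of *mt-Co1* to part of *mt-Nd4*. Its matches are 483 bases long for *mt-Co1*, a gene of 1545 bases, and 876 bases long for *mt-Nd4*, a gene of 1378 bases. *Gm10925* (chr1:24613974-24614651) matched *mt-Atp6* at 100% identity, *Gm28661* (chr1:24614885-24615565) matched *mt-Co2* at 100%, *Gm28437* (chr1:24613189-24613971) matched *mt-Co3* at 100%, *Gm28439* (chr1:24611535-24612410) matched *mt-Nd4* at 100%, and *Gm29216* (chr1:24615706-24616197) matched *mt-Co1* at 99.79%. These 5 had the highest counts among the copies. The counts of *Gm10925* were 57718, 48131 and 57126 in the WT libraries, beside 53689, 75408 and 81188 in the KO libraries. Those of *Gm28437* were 37175, 31350 and 43630 in the WT libraries, beside 37963, 59900 and 60679 in the KO libraries, and the genotypes overlapped for both.

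For members in this stretch, a read as long as those sequenced could often not be placed by its letters. The share of 150-base windows that also occur in a nuclear transcript was 99.8% for *mt-Co3*, 99.4% for *mt-Co2* and for *mt-Atp6*, 98.0% for *mt-Nd4l* and 97.0% for *mt-Nd3*. It was 59.2% for *mt-Nd4*, 23.6% for *mt-Co1*, and 0 for the other 6 mRNA genes and both rRNA genes. Copies outside annotated transcripts were not searched, so these 0s are lower limits. *mt-Atp8* in particular lies within the stretch, where no copy is annotated between *Gm10925* and *Gm28661*. The 5 genes above 90% had levels of 139 to 1457 CPM per kb in WT, and the other 8 mRNA genes had 371 to 9133 CPM per kb. The coefficients of variation of these 5 genes among WT libraries had a median of 19.7% (4.55% to 24.4%). The median was 6.92% (2.37% to 14.7%) for the 8 genes with no shared window found, or 6.01% (2.37% to 8.80%) without *mt-Atp8*. Among KO libraries the medians lay closer, at 16.9% (2.91% to 40.5%) against 8.61% (3.66% to 24.8%), or 8.02% (3.66% to 10.3%) without *mt-Atp8*. How the counting treated reads that map to several places is not stated, so its part in the levels and in the spread was not tested.

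The calls were repeated with the counts of each copy added to the member it matched best, an alternative chosen after seeing the data. Copies held 49.6% of the summed counts for *mt-Nd3*, 40.7% for *mt-Co3*, 38.1% for *mt-Atp6*, 32.7% for *mt-Co2* and 19.6% for *mt-Nd4l*. They held 5.13% for *mt-Nd4* and 3.46% for *mt-Co1*. With the copies added, *mt-Co3* rose with a log2 fold change of 0.62 (adjusted p = 0.00865 from edgeR), *mt-Nd4l* with 0.55 (adjusted p = 0.00643) and *mt-Co2* with 0.37 (adjusted p = 0.0163). *mt-Atp6* then passed the test, with a log2 fold change of 0.35 (adjusted p = 0.0159), whereas *mt-Nd3* did not (0.38, adjusted p = 0.163). In all 12 members rose, and 3 of them rose by over 1.5-fold, no longer including *mt-Nd4l*. Against the mitochondrial total with the copies added, 4 members were higher and 8 lower.

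**Figure D4:**
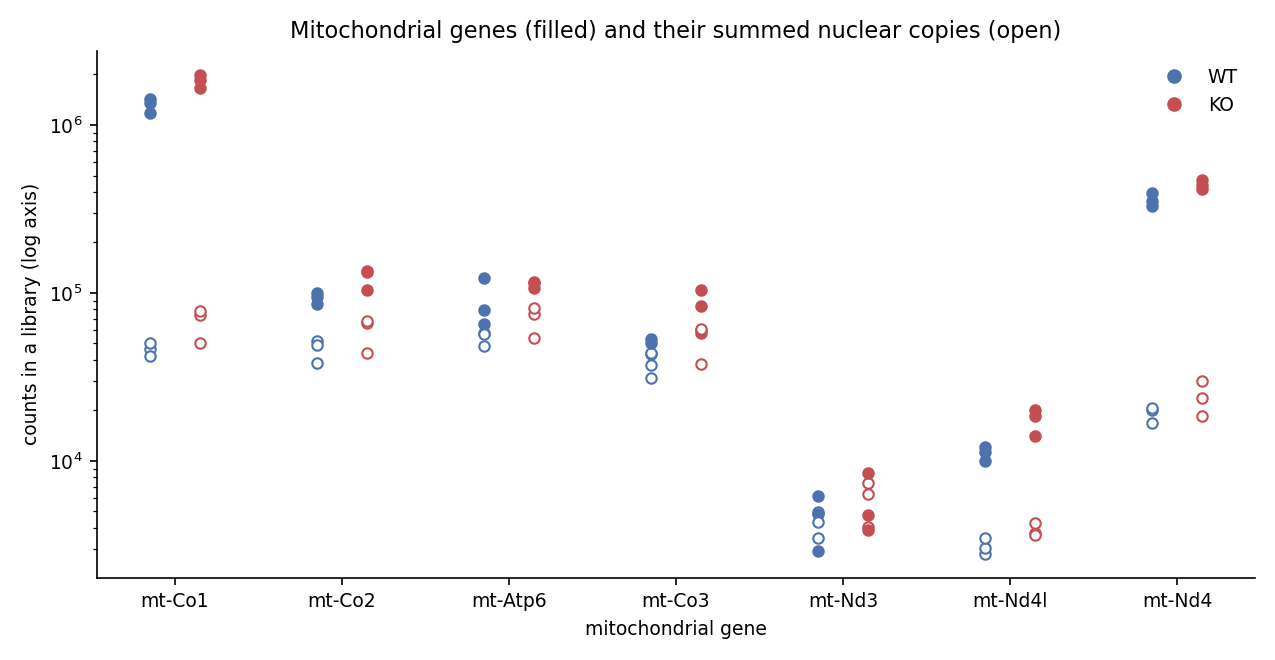
Counts per library, on a log axis, of the 7 members that share 150-base windows with nuclear transcripts (filled) and of their summed nuclear copies (open), with WT in blue and KO in red. The copies reach levels close to the member for *mt-Atp6*, *mt-Co3* and *mt-Nd3*, and lie far below it for *mt-Co1* and *mt-Nd4*.

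The nuclear genes that copy, transcribe, process and translate the mitochondrial genome moved little as a group. Of 107 such genes tested, 22 rose and 14 fell, 20.6% and 13.1%, where 21.9% and 23.1% of all genes did, and their median log2 fold change was 0.01. The split turned with the scaling, to 14 higher and 22 lower with library size alone and to 40 higher and 8 lower with upper-quartile factors. Without KO replicate 2, 13 rose, and without KO replicate 3, 9 fell. Among genes of mtDNA maintenance, 3 of 13 rose and 2 fell, and neither the DNA polymerase *Polg* (log2 fold change -0.02, adjusted p = 0.7 from edgeR) nor the helicase *Twnk* (0.11, adjusted p = 0.177) passed the test. Among 10 genes of mitochondrial transcription, 3 rose and 0 fell. The mtDNA packaging and transcription factor *Tfam* had 30.5, 28.2 and 27.8 CPM in WT and 28.8, 32.1 and 30.9 CPM in KO (log2 fold change 0.09, adjusted p = 0.249). The RNA polymerase *Polrmt* (-0.09, adjusted p = 0.214) and the initiation factor *Tfb2m* (-0.10, adjusted p = 0.143) did not pass either. The elongation factor *Tefm* rose, from 8.47, 7.56 and 8.92 CPM in WT to 8.88, 10.3 and 11.5 CPM in KO, with WT replicate 3 just above KO replicate 1 (log2 fold change 0.30, adjusted p = 0.0385).

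Of 9 transcript processing genes, 1 rose and 2 fell, and *Elac2*, which cuts tRNA 3′ ends, did not pass (-0.08, adjusted p = 0.139 from edgeR). Of 12 genes of RNA stability and decay, 2 rose and 2 fell. The mRNA-stabilizing pair *Lrpprc* (0.11, adjusted p = 0.0752) and *Slirp* (-0.17, adjusted p = 0.365) and the poly(A) polymerase *Mtpap* (0.01, adjusted p = 0.917) did not pass. *Pde12*, which removes poly(A) tails from mitochondrial RNAs, was the only gene of these lists to change by over 1.5-fold. It had 26.6, 30.2 and 25.9 CPM in WT and 17.1, 17.3 and 17.1 CPM in KO, a fall of 0.68 on the log2 scale (log2 fold change -0.68, SE 0.064, adjusted p = 2.39e-05). Of the remaining lists, 2 of 14 tRNA modification genes rose and 3 fell, 4 of 14 rRNA modification and ribosome assembly genes rose and 2 fell, 3 of 22 aminoacyl-tRNA synthesis genes rose and 2 fell, and 4 of 13 translation factor genes rose and 1 fell.

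Regulators of mitochondrial biogenesis differed among themselves. Of 11 tested, 4 rose and 5 fell, where 21.9% and 23.1% of all genes did, with a median log2 fold change of -0.06. The coactivator *Ppargc1a* had 8.81, 8.04 and 9.47 CPM in WT and 15.7, 18.5 and 19.1 CPM in KO (log2 fold change 1.02, SE 0.091, adjusted p = 1.78e-05 from edgeR). The fatty acid receptor *Ppara* rose with 1.13 (adjusted p = 6.38e-06), and the orphan receptor *Esrrg* with 0.79 (adjusted p = 0.000214). For these 3 genes every KO library lay above every WT library. Those that fell, named after their values were seen, were the coactivator *Pprc1* (log2 fold change -0.40, adjusted p = 7.71e-05), *Perm1* (-0.41, adjusted p = 0.00573), and the transcription factor genes *Nrf1* (-0.29, adjusted p = 0.000674), *Gabpb1* (-0.24, adjusted p = 0.0011) and *Yy1* (-0.18, adjusted p = 0.00262). For these 5 genes every KO library lay below every WT library, and none fell by over 1.5-fold.

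Nuclear subunits of the complexes that hold mitochondrially encoded proteins rose broadly. Of 74 tested, 65 rose and 0 fell, with edgeR, where 21.9% of all genes rose. DESeq2 and limma-voom also called 0 lower, and 0 were lower at an unadjusted p under 0.05 with each tool. In complex I, 33 of 36 nuclear subunits rose, with a median log2 fold change of 0.39, beside 4 of 7 mitochondrial subunits and a median of 0.27. In complex III, 9 of 9 rose, with a median of 0.37, beside 0.33 for *mt-Cytb*. In complex IV, 10 of 15 rose, with a median of 0.36, beside 3 of 3 and a median of 0.44. In complex V, 13 of 14 rose, with a median of 0.37, beside 0 of 2 and a median of 0.39. The difference between nuclear and mitochondrial subunits was not tested.

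Of the 74 nuclear subunits, 10 rose by over 1.5-fold, or 13.5%, where 8.31% of all genes did. They were *Ndufb10* in complex I (log2 fold change 0.72), *Uqcrc2* (0.61), *Cyc1* (0.66) and *Uqcrfs1* (0.67) in complex III, and *Atp5g1* (0.68) and *Atp5g3* (0.67) in complex V. In complex IV they were *Cox5a* (0.72) and 3 isoforms typical of heart and skeletal muscle, *Cox6a2* (1.01), *Cox8b* (1.33) and *Cox7a1* (1.98). *Cox7a1* had 4.87, 3.28 and 4.18 CPM in WT and 12.5, 19.2 and 17.2 CPM in KO, with no overlap (SE 0.18, adjusted p = 1.66e-05 from edgeR).

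Complex II, which has no mitochondrially encoded subunit, rose in 4 of 4 genes with a median of 0.55, and *Sdha*, its flavoprotein, by 0.74 on the log2 scale. Of 17 genes of organelle content, 8 rose and 2 fell, where 21.9% and 23.1% of all genes did, with a median of 0.10. Those past 1.5-fold were the citrate synthase *Cs* (log2 fold change 0.62), the cristae protein *Chchd3* (0.64) and the muscle ADP/ATP carrier *Slc25a4* (1.07). Those that fell, named after their values were seen, were the import channel gene *Tomm40* (-0.32, adjusted p = 0.00113 from edgeR) and the chaperonin gene *Hspd1* (-0.22, adjusted p = 0.0101).

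**Figure D5:**
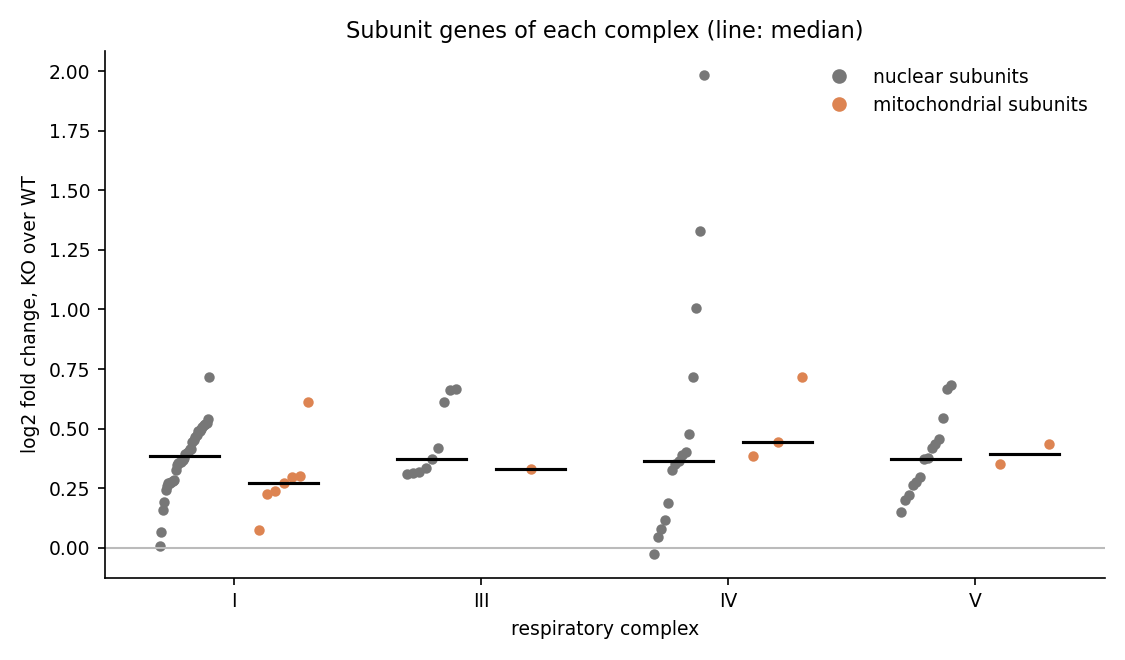
Log2 fold change of KO over WT for each nuclear subunit (grey) and each mitochondrial subunit (orange) of complexes I, III, IV and V, with 1 point per gene and a line at the median. The medians are 0.39 and 0.27 in complex I, 0.37 and 0.33 in complex III, 0.36 and 0.44 in complex IV, and 0.37 and 0.39 in complex V.

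The KO libraries were ordered alike over the mRNA genes. KO replicate 1 was the lowest KO library for 12 of 13 mRNA genes, and KO replicate 3 the highest for 10 of 13. KO replicate 1 also had the lowest summed level of muscle fiber markers among the KO libraries, at 44766 CPM, beside 54842 and 54348 CPM for the others. Its summed level of nuclear subunits of complexes I, III, IV and V was lowest too, at 10092 CPM beside 12024 and 11437 CPM. The part of these differences between libraries in the members' levels was not tested.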

How the data were processed

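Raw counts per gene, with no normalization, were deposited by the authors for 3 WT and 3 KO libraries of leg muscle. According to the methods and the submitters' processing notes, they trimmed 150 bp paired-end reads with Trim Galore 0.6.6, mapped them to mm10 with HISAT2 2.2.1 and counted them with featureCounts 2.0.1. The annotation, the strand setting and the handling of reads that map to several places are not given in the sources used here.

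Counts were tested in R 4.3.3 with edgeR 4.0.16 (filterByExpr, TMM, quasi-likelihood F-test on genotype alone) over the 22071 genes that passed the filter, with Benjamini-Hochberg adjustment. An adjusted p under 0.05 was required to say that a gene rose or fell, and changes over 1.5-fold were counted in addition. CPM values use TMM-scaled library sizes. The same test was run with the summed mitochondrial counts as library size. Ratios were tested with exact permutation tests. On simulated counts of 22071 genes with 200 changed 2-fold, edgeR called 196 of these and 11 unchanged genes. The set changes were larger than those of the members called here, and far fewer genes changed than were called in the data. The simulation therefore does not measure how well changes of the members' size are found, or how the scaling holds here.

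Nuclear copies were sought with blastn 2.17.0+ among GENCODE M21 transcripts (at least 200 bases at 90% identity), since no nuclear genome was used here, in place of the planned search of the genome. Sequences are from the same transcripts.

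The members and the gene lists were chosen with earlier results of these data known. Named in full were all mRNA and rRNA genes, the 3 tRNA genes with the highest mean count and those called. From the lists, genes past both thresholds were named, with a fixed group of regulators, and from the copies the 5 most counted. Other tRNA genes were named after their values were seen. The alternatives were RLE and upper-quartile factors, library size alone, TMM from nuclear genes, omitting the filter, a minimum of 10 counts in each sample, DESeq2 1.42.0, limma-voom (limma 3.58.1), a replicate block, and leaving out each library. Per-sample and series tables differed in 0 values.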

Additional observations from a re-analysis of the deposited data

How the results depend on the processing

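The number of members that rose stayed within 1.5 times of 11 under all alternatives run, with 9 for library size alone, 14 for upper-quartile factors and 8 to 12 when 1 library was left out. The number that rose by over 1.5-fold was 2 with library size alone and 2 to 5 with a library left out. The number that fell was 0 to 1, with 1 only without WT replicate 2. Against the mitochondrial total, 1 to 4 members were higher and 5 to 10 lower with a library left out. Among nuclear genes of mitochondrial gene expression, 14 rose and 22 fell with library size alone, 40 and 8 with upper-quartile factors, and 13 to 30 rose and 9 to 15 fell with a library left out. The difference of KO minus WT in the log2 ratio of *mt-Atp6* to *mt-Atp8*, at -0.05, ranged from -0.23 to 0.14 with a library left out. This difference, not the ratio itself, so changed sign. The causes of these changes were not tested. Of the single members' calls, 434 of the values under alternatives kept their side of the threshold, 21 lost it and 24 gained it, and against the total 272 kept it, 24 lost it and 4 gained it.

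The labels tie no litter to a replicate number, and deviations of same-numbered WT and KO libraries correlated at -0.20, -0.13 and 0.05, so they were not treated as pairs. With a replicate block, 10 members rose and 0 fell, since the calls of *mt-Nd1* (adjusted p = 0.0639), *mt-Nd5* (0.0675) and *mt-Tm* (0.0854) were lost and those of *mt-Atp8* (0.0341) and *mt-Atp6* (0.0371) were gained. Against the total, 3 were higher and 7 lower with the block, with the calls of *mt-Tp* (0.0914) and *mt-Nd6* (0.0555) lost. Depth limits the 7 tRNA genes that were not tested, with at most 16 counts in any library, and makes the tRNA genes with few counts the least precise.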
